A study of Oryza sativa with 5 samples.

Results

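The transcripts of 6 rice photoreceptor genes were followed in seedlings: phytochrome A (phyA, LOC_Os03g51030), phytochrome B (phyB, LOC_Os03g19590), phytochrome C (phyC, LOC_Os03g54084), cryptochrome 1a (cry1a, LOC_Os02g36380), cryptochrome 1b (cry1b, LOC_Os04g37920) and cryptochrome 2 (cry2, LOC_Os02g41550). They were chosen by locus, by a rule that uses no measured value, from the 22546 genes that had a tag in at least 1 library. The deposited gene descriptions name phyA, phyB and phyC as such, but describe the 3 cryptochrome loci only as proteins with the FAD-binding domain of DNA photolyase, so the names cry1a, cry1b and cry2 rest on the locus list and not on the tables.

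The libraries came from 5 genotypes of indica rice, with 1 tag library each. FU was the hybrid with an OsHDT1 over-expression construct driven by the maize ubiquitin promoter, and FR was the hybrid with an OsHDT1 RNAi construct driven by the CaMV 35S promoter. In both, the construct came in through the MH63 parent, because transgenic MH63 plants were the pollen donors on ZS97. SY63 was the hybrid of ZS97 with MH63 without a construct, and MH63 and ZS97 were its inbred parents. The over-expression library is coded FV in the sample labels. All seedlings were 15 days old, raised in 15 h of light a day on 1/2 MS medium, with 9 h of darkness. The study gives a single afternoon harvest time of the subjective day, so every level here belongs to that time of day. The sources used here do not say how many plants or which transgenic lines made up a library. OsHDT1 (LOC_Os05g51830), a plant-specific HD2-type histone deacetylase gene, had 7590 tags in FU and 142 in FR, against 428 in SY63. It had 2633 tags in MH63, against 304 in ZS97. By qRT-PCR over the day, under long and short days, the study reports no clear difference in OsHDT1 transcript between MH63 and SY63. The plant age is not given with that result. It also reports none in OsHDT1 protein among MH63, ZS97 and SY63, in leaves of plants older than these seedlings. Why the MH63 library had so many OsHDT1 tags was not tested.

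Phytochromes are the red and far-red light receptors of plants. Each carries a bilin chromophore made from heme, and light switches the protein between an inactive and an active form that moves into the nucleus and acts on PIF transcription factors. Phytochrome A is the form that is unstable in light and that senses far-red light, whereas phytochromes B and C are light-stable. Cryptochromes are blue-light receptors that bind a flavin and are related to DNA photolyases. In rice, both families act on seedling greening and on the time of heading, and both signal in part through the COP1 ubiquitin ligase.

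Each transcript gave 1 tag, next to its NlaIII site nearest the 3′ end, so levels are given in TPM (tags of a gene per 1000000 clean tags of the library) and need no correction for length when genes are compared. The libraries held between 4821637 and 5022081 clean tags, of which 69.5% to 73.9% lay on genes, and 3 tags equal between 0.597 and 0.622 TPM. All 6 genes had more than 3 tags in all 5 libraries. The seedlings were green tissue by their markers, with all 17 chlorophyll A-B binding protein genes detected in every library, and these took 1.87% of the gene tags in FU, 1.55% in FR, 2.03% in SY63, 0.677% in MH63 and 2.13% in ZS97. Of these 17 genes, 13 were called lower in MH63 than in ZS97, where 17.5% of all genes tested were called in either direction, and 10 were called higher in SY63 than in MH63, where 16.5% were. The part of this difference in the values of MH63 given here was not tested, and fewer green cells cannot be told apart from less of these RNAs per cell.

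Levels carry exact 95% Poisson intervals, and ratios carry exact conditional intervals. With 1 library per genotype both cover counting error only, and every test compares libraries, not genotypes. A gene was called where the 2-sided Audic-Claverie exact test for tag counts gave a false discovery rate (FDR) of at most 0.001 over all genes and the log2 ratio of TPM was at least 1 in size.

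The photoreceptor transcripts lay between 6.98 TPM (cry1a in FR) and 78.5 TPM (cry1b in MH63). The 6 genes together had 830 tags in FU, 852 in FR, 845 in SY63, 983 in MH63 and 865 in ZS97, or 172, 170.0, 174, 196 and 174 TPM in that order. cry1b had the highest level of the 6 genes in FR, SY63, MH63 and ZS97, while in FU phyB was highest. cry1a was the lowest of the 6 in all 5 libraries.

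**Figure D1:**
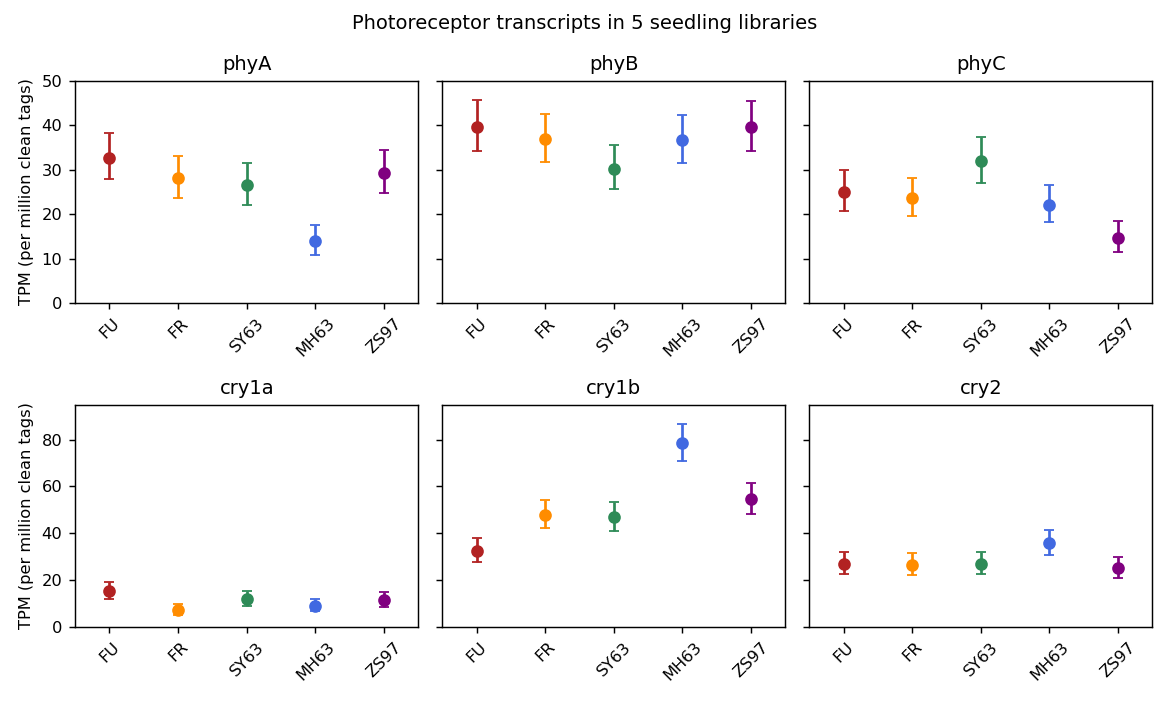
TPM of each photoreceptor gene (vertical axis, from 0, with its own range in the upper and the lower row) in the FU, FR, SY63, MH63 and ZS97 libraries. Points are the single libraries and bars are exact 95% Poisson intervals. phyA was low in MH63 at 13.9 TPM, phyC was low in ZS97 at 14.7 TPM, and cry1b was high in MH63 at 78.5 TPM and low in FU at 32.4 TPM.

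Among the phytochromes, phyA separated MH63 from the other genotypes. phyA, which encodes the receptor for far-red light, was read 158 times in FU, 141 times in FR, 129 times in SY63, 70 times in MH63 and 145 times in ZS97. The levels were 32.8 TPM (27.9 to 38.3) in FU, 28.1 TPM (23.7 to 33.2) in FR, 26.6 TPM (22.2 to 31.6) in SY63, 13.9 TPM (10.9 to 17.6) in MH63 and 29.2 TPM (24.7 to 34.4) in ZS97. MH63 was the only low library, and its interval did not overlap that of any other. In the order of levels, FU, ZS97, FR and SY63 did not differ from their neighbours beyond counting error.

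phyA was lower in MH63 than in ZS97, with a log2 ratio of -1.07 (-1.50 to -0.65) and an FDR of 8.9e-07 in the Audic-Claverie exact test, and was the only gene of the 6 called between the parents. Over all genes, 17.5% of those tested were called in this comparison. The call was lost in edgeR's exact test with an assumed biological coefficient of variation of 0.2 (unadjusted p = 0.0239) or 0.4 (unadjusted p = 0.228).

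The 3 hybrids all held phyA near the level of ZS97 rather than that of MH63. This was not particular to phyA, since SY63 was nearer to ZS97 over all genes too. Of all genes tested, 3.95% were called for SY63 over ZS97 and 16.5% for SY63 over MH63. FU was above MH63 by 1.23 (0.82 to 1.66) on the log2 scale, FR by 1.01 (0.59 to 1.45) and SY63 by 0.93 (0.50 to 1.37). Against ZS97 the log2 ratios were 0.16 (-0.17 to 0.50) in FU, -0.06 (-0.40 to 0.29) in FR and -0.14 (-0.49 to 0.21) in SY63, so that each interval included 0. The difference between SY63 and MH63 had an FDR of 5.7e-05 in the Audic-Claverie exact test but lay just under the ratio required for a call. With the tags on genes, TMM factors or DESeq2 size factors in place of clean tags, the log2 ratio became 1.01, 1.09 and 1.07, and phyA was called. MH63 had the lowest chlorophyll A-B binding share of the 5 libraries, as given above, and its part in the phyA difference was not tested.

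phyB, the main light-stable phytochrome, was the steadiest of the 6 genes. Its tags numbered 191 in FU, 185 in FR, 147 in SY63, 184 in MH63 and 196 in ZS97. These gave 39.6 TPM (34.2 to 45.6) in FU, 36.9 TPM (31.8 to 42.6) in FR, 30.3 TPM (25.6 to 35.6) in SY63, 36.6 TPM (31.5 to 42.3) in MH63 and 39.5 TPM (34.2 to 45.5) in ZS97. SY63 had the lowest value, but all 5 intervals overlapped and no neighbours in the order of levels differed beyond counting error. The highest level exceeded the lowest by 1.31-fold. The log2 ratio was 0.39 (0.07 to 0.71) for FU over SY63 and -0.39 (-0.70 to -0.07) for SY63 over ZS97. Neither was called.

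phyC showed another pattern, with its lowest level in ZS97 and its highest in SY63. phyC encodes a light-stable receptor that in rice needs phyB to accumulate. Tag counts were 121 in FU, 118 in FR, 155 in SY63, 111 in MH63 and 73 in ZS97. The corresponding levels were 25.1 TPM (20.8 to 30.0) in FU, 23.5 TPM (19.5 to 28.2) in FR, 31.9 TPM (27.1 to 37.4) in SY63, 22.1 TPM (18.2 to 26.6) in MH63 and 14.7 TPM (11.5 to 18.5) in ZS97. The ZS97 interval lay below those of the 3 hybrids and touched the lower end of that of MH63.

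SY63 had more phyC than ZS97, with a log2 ratio of 1.12 (0.71 to 1.54) and an FDR of 5.6e-07 in the Audic-Claverie exact test. phyC was the only gene of the 6 called between SY63 and ZS97, where 3.95% of all genes tested were called. As with phyA, the call was lost in edgeR's exact test with an assumed coefficient of variation of 0.2 (unadjusted p = 0.0161) or 0.4 (unadjusted p = 0.20). The level in SY63 was also above that in MH63, by 0.53 (0.17 to 0.89) on the log2 scale, and above the mean of the parents, by 0.79 (0.47 to 1.11), without being called in either. FU and FR lay between SY63 and ZS97, with log2 ratios over ZS97 of 0.77 (0.34 to 1.21) for FU and 0.68 (0.24 to 1.12) for FR.

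**Figure D2:**
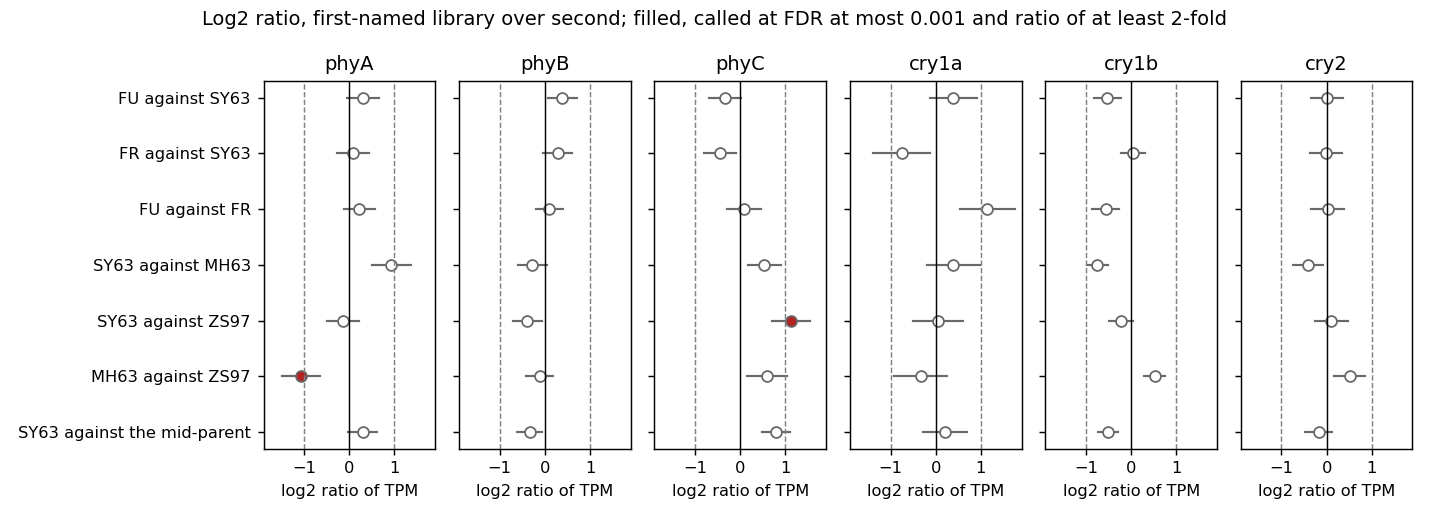
Log2 ratio of TPM (horizontal axis, first-named over second-named library) of the 6 genes in 7 comparisons. Points are ratios, bars are exact 95% intervals for counting error, dashed lines mark a log2 ratio of 1 in either direction, and the filled points are the only 2 calls, phyA in MH63 against ZS97 at -1.07 and phyC in SY63 against ZS97 at 1.12.

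Among the cryptochromes, cry1a was the least abundant and differed most between the transgenic hybrids. It had 74 tags in FU, 35 in FR, 57 in SY63, 45 in MH63 and 56 in ZS97. In TPM it stood at 15.3 (12.1 to 19.3) in FU, 6.98 (4.86 to 9.71) in FR, 11.7 (8.89 to 15.2) in SY63, 8.96 (6.54 to 12.0) in MH63 and 11.3 (8.53 to 14.7) in ZS97. FU was highest and FR lowest, with SY63 between them, and the intervals of FU and FR did not overlap. The log2 ratio of FU over FR was 1.14 (0.54 to 1.76), but its FDR of 0.00108 in the Audic-Claverie exact test just missed the threshold, so the gene was not called. When the adjustment was made over genes with at least 20 tags, it was called. Against SY63 the log2 ratio was 0.39 (-0.13 to 0.91) in FU and -0.75 (-1.40 to -0.12) in FR, and neither was called. These 3 comparisons share libraries and are not independent of each other.

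cry1b had a 2.42-fold range over the 5 libraries, close to the 2.35-fold range of phyA. It had 156 tags in FU, 240 in FR, 227 in SY63, 394 in MH63 and 271 in ZS97. Its level was 32.4 TPM (27.5 to 37.8) in FU, 47.9 TPM (42.0 to 54.3) in FR, 46.7 TPM (40.9 to 53.2) in SY63, 78.5 TPM (70.9 to 86.6) in MH63 and 54.7 TPM (48.4 to 61.6) in ZS97. MH63 stood above the other libraries and FU below them, in each case without overlap of the intervals, while FR, SY63 and ZS97 did not separate.

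The log2 ratio of cry1b was -0.75 (-0.99 to -0.51) for SY63 over MH63, with an FDR of 2.2e-09 in the Audic-Claverie exact test. It was 0.52 (0.29 to 0.75) for MH63 over ZS97, with an FDR of 2.2e-05 in the same exact test. Both passed the FDR and missed the ratio required for a call. With TMM factors these log2 ratios shrank to -0.58 for SY63 over MH63 and 0.34 for MH63 over ZS97. FU over SY63 gave -0.53 (-0.83 to -0.23) with an FDR of 0.0034 by the Audic-Claverie exact test, and FU over FR gave -0.57 (-0.87 to -0.27) with an FDR of 0.0012 by the same test, both above the threshold of 0.001. FU lay farthest from the parents, with log2 ratios of -1.28 (-1.55 to -1.01) over MH63, -0.76 (-1.05 to -0.47) over ZS97 and -1.04 (-1.30 to -0.79) over their mean.

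cry2 was nearly level among the hybrids. It gave 130 tags in FU, 133 in FR, 130 in SY63, 179 in MH63 and 124 in ZS97. Its TPM was 27.0 (22.5 to 32.0) in FU, 26.5 (22.2 to 31.4) in FR, 26.8 (22.4 to 31.8) in SY63, 35.6 (30.6 to 41.3) in MH63 and 25.0 (20.8 to 29.8) in ZS97. Only MH63 differed from its neighbour in the order of levels. FU was below MH63 by a log2 ratio of -0.40 (-0.74 to -0.07) and SY63 by -0.41 (-0.75 to -0.08), and MH63 was above ZS97 by 0.51 (0.17 to 0.85). None of these was called. These values use clean tags, and the distances of MH63 from SY63 and ZS97 shrank with the other scalings. With TMM factors the log2 ratio of cry2 became -0.25 for SY63 over MH63 and 0.33 for MH63 over ZS97. No intervals were computed with these factors. Between FU and SY63 the interval of the log2 ratio of cry2 ran from -0.35 to 0.37, and its sign changed with the scaling.

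In the 3 comparisons that involve the transgenic hybrids, none of the 6 genes was called for FU over SY63, where 3.0% of all genes tested were called, for FR over SY63, where 1.16% were called, or for FU over FR, where 3.22% were called. Nor did any of the 6 reach an FDR of 0.001 in these 3 comparisons by the Audic-Claverie exact test. By the same test, which covers counting error only, the unadjusted p was under 0.05 for phyB, phyC and cry1b in FU over SY63. It was also under 0.05 for phyC and cry1a in FR over SY63, and for cry1a and cry1b in FU over FR. The share of all genes under 0.05 was not counted, so these values have no background beside them. In edgeR's exact test with a coefficient of variation of 0.2, the only unadjusted p under 0.05 was that of cry1a in FU over FR, at 0.0284. The median size of the log2 ratio was 0.37 over the 6 genes for FU over SY63, against 0.35 over all genes with at least 20 tags. For FR over SY63 it was 0.18 over the 6 genes, against 0.30 over all genes, and for FU over FR it was 0.16, against 0.36.

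Between the hybrid and its parents, 0 of the 6 genes were called for SY63 over MH63, where 16.5% of all genes were called. By the FDR of the exact test alone, 2 of the 6 passed in this comparison (phyA and cry1b), beside 27.0% of all genes. For SY63 over ZS97 the FDR alone gave phyC, as did the full rule, beside 9.87% of all genes. For MH63 over ZS97 the FDR alone gave phyA and cry1b, beside 28.1% of all genes. Set against the mean of its parents, SY63 had no called gene among the 6, beside 6.34% of all genes, and by the FDR alone it had phyC, higher, and cry1b, lower, beside 16.6% of all genes. The log2 ratio of SY63 to the mean of the parents was 0.79 for phyC with an FDR of 8.7e-06 by the Audic-Claverie exact test, and -0.51 (-0.74 to -0.29) for cry1b with an FDR of 2.1e-05. The median size of the log2 ratio over the 6 genes was 0.47 for SY63 over MH63, 0.18 for SY63 over ZS97 and 0.52 for MH63 over ZS97, against 0.62, 0.35 and 0.63 over all genes with at least 20 tags. These medians too were not matched for depth.

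The 2 families were present in unlike proportions in the 5 libraries. The phytochromes together had 470 tags in FU, 444 in FR, 431 in SY63, 365 in MH63 and 414 in ZS97. The cryptochromes together had 360 tags in FU, 408 in FR, 414 in SY63, 618 in MH63 and 451 in ZS97. FU had 1.31 phytochrome tags (1.14 to 1.50, exact 95% interval) for each cryptochrome tag, FR had 1.09, SY63 had 1.04, MH63 had 0.591 (0.518 to 0.673) and ZS97 had 0.918. FU and MH63 stood at the ends of this order, and the intervals of FR, SY63 and ZS97 included equal numbers.

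Within the phytochromes, phyA took 33.6% of the tags in FU, 31.8% in FR, 29.9% in SY63, 19.2% in MH63 and 35.0% in ZS97. The share of phyC was 25.7% in FU, 26.6% in FR, 36.0% (31.4 to 40.7, exact binomial) in SY63, 30.4% in MH63 and 17.6% (14.1 to 21.7) in ZS97. In SY63 phyC and phyB were about equal, at 155 and 147 tags, whereas phyB led in the other 4 libraries. Within the cryptochromes, cry1b had 2.11 tags for each tag of cry1a in FU, 6.86 in FR, 3.98 in SY63, 8.76 in MH63 and 4.84 in ZS97. The share of cry1a was 20.6% (16.5 to 25.1) in FU, 8.58% (6.05 to 11.7) in FR, 13.8% (10.6 to 17.5) in SY63, 7.28% (5.36 to 9.62) in MH63 and 12.4% (9.52 to 15.8) in ZS97. Shares within a family do not depend on how the libraries are scaled.

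**Figure D3:**
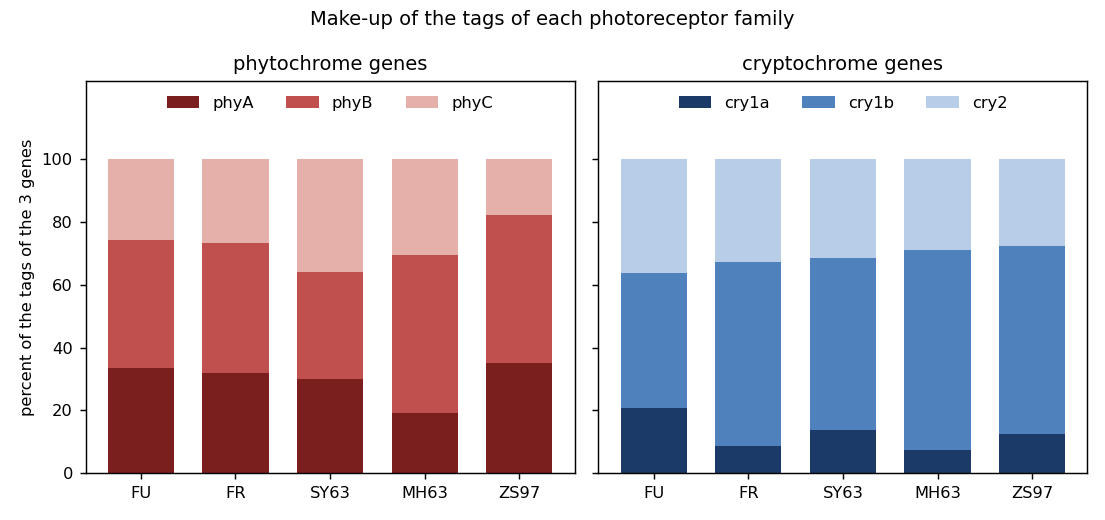
Percent of the phytochrome tags (left) and of the cryptochrome tags (right) that each of the 3 genes took in the FU, FR, SY63, MH63 and ZS97 libraries, as stacked bars from 0. phyA took 19.2% in MH63 against 35.0% in ZS97, phyC took 36.0% in SY63 against 17.6% in ZS97, and cry1a took 20.6% in FU against 8.58% in FR.

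The 6 genes did not share a profile over the 5 libraries. Likeness was measured as the root mean square difference of log2(TPM + 1), each gene centred on its own mean, which is a description of 5 libraries without a test. The closest pair was phyB and cry2, at 0.228, and the farthest was phyA and cry1b, at 0.793. Among 7634 genes with at least 50 tags in every library, phyA was followed most closely by LOC_Os08g21660, a WD-domain gene at 0.0305, and LOC_Os03g18810, an aminotransferase gene at 0.0430. The nearest genes to phyC were LOC_Os05g46580 (polyprenyl synthetase, 0.0632) and LOC_Os02g14160 (peroxidase precursor, 0.0780). For cry1b they were LOC_Os02g48790 (AML1, 0.0278) and LOC_Os03g60120 (AP2 domain, 0.0461).

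The other profiles had near neighbours as well. phyB was nearest to LOC_Os06g01170 (PHD finger, 0.0179) and LOC_Os01g42430 (vacuolar ATP synthase, 0.0230), and cry2 to LOC_Os12g20144 (expressed protein, 0.0138) and LOC_Os07g08030 (ribose-5-phosphate isomerase A, 0.0162). cry1a was nearest to LOC_Os03g03130 (ubiquitin-conjugating enzyme, 0.0399) and LOC_Os03g62340 (protein kinase, 0.0688). Within a difference of 0.1 there were 182 genes for cry2, 71 for phyB, 30 for phyA, 22 for cry1b, and 8 each for phyC and cry1a. The 2 flattest genes, phyB and cry2, had the most neighbours, but the number did not otherwise follow the size of the differences. phyA and cry1b, with the largest spreads, had more neighbours than phyC and cry1a.

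**Figure D4:**
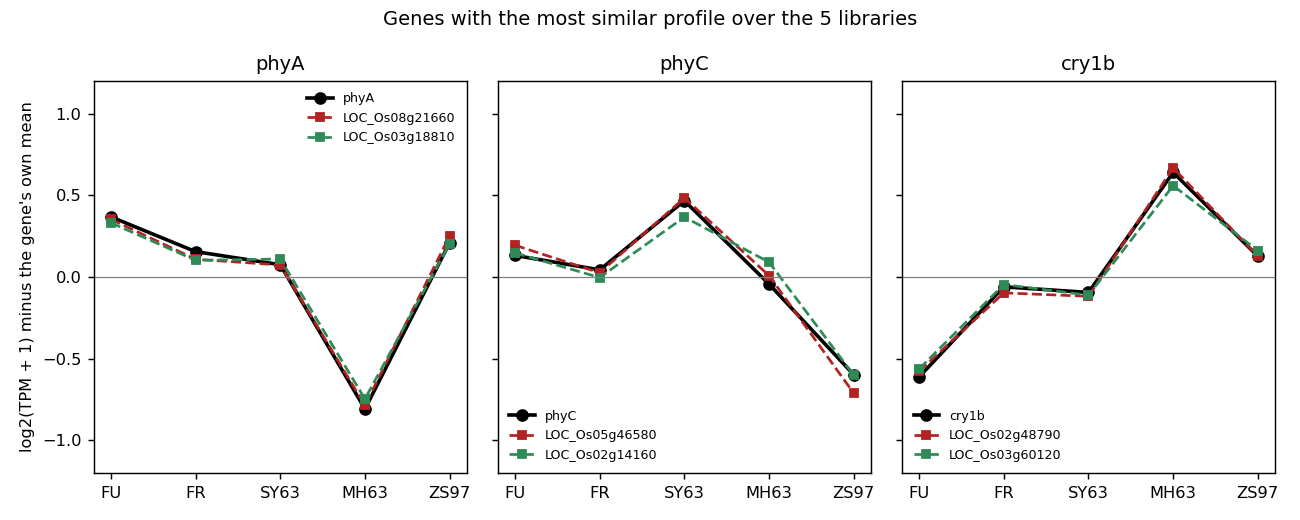
Profiles of phyA, phyC and cry1b and of the 2 genes most like each, over the FU, FR, SY63, MH63 and ZS97 libraries (vertical axis, log2(TPM + 1) minus the mean of the gene over the 5 libraries). The profiles of phyA and its neighbours dip in MH63, those of phyC dip in ZS97, and those of cry1b peak in MH63 and are lowest in FU.

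A further 43 genes were found by words in the deposited descriptions tied to light sensing, light signalling, chromophore synthesis or photolyase. Of 3 genes named for phytochrome, 2 were called between the parents, where 17.5% of all genes were. For SY63 over MH63 and SY63 over ZS97, 1 of the 3 was called in each, where 16.5% and 3.95% of all genes were. LOC_Os03g56950, described as phytochrome-interacting factor 4, a member of the PIF family of growth regulators, had 66 tags in FU, 66 in FR, 72 in SY63, 46 in MH63 and 164 in ZS97. It was high in ZS97 alone, and fell by 1.16 on the log2 scale in SY63 against ZS97 (FDR 9.6e-08, exact test) and by 1.85 in MH63 against ZS97 (FDR 3.8e-16, exact test). LOC_Os07g04220, described as a receptor-like kinase of wound and phytochrome signalling, had 19 tags in FU, 9 in FR, 17 in SY63, 53 in MH63 and 15 in ZS97. It was high in MH63 alone, with a log2 ratio of -1.59 (-2.47 to -0.78) for SY63 over MH63 and 1.80 (0.95 to 2.74) for MH63 over ZS97. LOC_Os05g30190, described as a phytochrome A-associated F-box protein, had 19 tags in FU, 42 in FR, 38 in SY63, 46 in MH63 and 30 in ZS97 and was not called.

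The phytochrome chromophore is made from heme by way of heme oxygenase, and 2 genes were described as such. Heme oxygenase 1 (LOC_Os06g40080), the type that opens the heme ring, had 382 tags in FU, 420 in FR, 351 in SY63, 300 in MH63 and 360 in ZS97 and was not called in any of the 7 comparisons. Heme oxygenase 2 (LOC_Os03g27770) had 267 tags in FU, 192 in FR, 208 in SY63, 134 in MH63 and 348 in ZS97. It was called lower in MH63 than in ZS97, with a log2 ratio of -1.40 (-1.69 to -1.10), where 17.5% of all genes were called.

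Of 4 photolyase and cryptochrome-like genes outside the 6, 2 were called for SY63 over MH63, where 16.5% of all genes were. For MH63 over ZS97, where 17.5% of all genes were called, 1 of the 4 was. LOC_Os06g45100, described by the same photolyase FAD-binding domain as the cryptochromes, had 18 tags in FU, 57 in FR, 64 in SY63, 28 in MH63 and 42 in ZS97. It fell in FU against SY63, with a log2 ratio of -1.82 (-2.66 to -1.05) and an FDR of 5.2e-06 by the exact test, and in FU against FR, with a log2 ratio of -1.61 (-2.46 to -0.82). No other gene of the 43 was called for either of these comparisons, and 1 of 43 is no larger a share than the 3.0% and 3.22% of all genes called in them. By the FDR alone, LOC_Os09g36240 (log2 ratio -0.48), the NPH3 gene LOC_Os03g10880 (-0.81), a COP9 subunit gene (LOC_Os04g56070, -0.90) and LOC_Os01g01340 (-0.22) also passed for FU over SY63. LOC_Os03g10880 (-0.56), LOC_Os01g01340 (-0.17) and LOC_Os03g15040 (-0.68) did so for FU over FR. The share of all genes passing the FDR alone was not counted for these 2 comparisons. LOC_Os06g45100 was also higher in SY63 than in MH63, with a log2 ratio of 1.24 (0.58 to 1.94). LOC_Os09g36240, described as a DNA photolyase, was low in MH63 with 112 tags, against 485 tags in ZS97, with 297 tags in FU, 383 in FR and 417 in SY63. Its log2 ratio was 1.94 (1.64 to 2.26) for SY63 over MH63 and -2.13 (-2.44 to -1.83) for MH63 over ZS97.

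Among 5 genes of the COP1, DET1 and COP9 complexes, which repress light responses in darkness, only DET1 was called. Its calls were for SY63 over MH63 and MH63 over ZS97, where 16.5% and 17.5% of all genes were called. DET1 (LOC_Os01g01484) had 168 tags in FU, 151 in FR, 116 in SY63, 54 in MH63 and 153 in ZS97. It was higher in SY63 than in MH63, by 1.15 (0.67 to 1.64) on the log2 scale, and lower in MH63 than in ZS97, with a log2 ratio of -1.52 (-2.00 to -1.06). COP1 (LOC_Os02g53140), the ubiquitin ligase that photoreceptors inhibit, ranged from 82 to 106 tags and was not called. The FAR1-family gene LOC_Os03g15040, of a family that in Arabidopsis acts in phytochrome A signalling, was not called. It had 226 tags in FU, 377 in FR, 271 in SY63, 542 in MH63 and 392 in ZS97. By the FDR alone it passed in every comparison except FU over SY63 and FR over SY63. Its log2 ratio was -0.95 (-1.17 to -0.74) for SY63 over MH63. Neither of 2 light-induced protein genes was called. LOC_Os01g01340 had 16180 tags in FU, 18984 in FR, 18984 in SY63, 36309 in MH63 and 21703 in ZS97. By the FDR alone it passed in every comparison except FR over SY63, with a log2 ratio of -0.89 (-0.91 to -0.86) for SY63 over MH63. The other, LOC_Os01g14410, was near the floor, with 6 tags in FU, 7 in FR, 0 in SY63, 2 in MH63 and 2 in ZS97. The clock gene OsGI (LOC_Os01g08700), which acts downstream of the photoreceptors in the photoperiod pathway, did not reach the ratio required for a call. It had 1845 tags in FU, 2482 in FR, 2010 in SY63, 2709 in MH63 and 3076 in ZS97. By the FDR alone, OsGI passed in every comparison except FU over SY63. Its log2 ratio was -0.38 (-0.47 to -0.30) for SY63 over MH63 and -0.58 (-0.67 to -0.50) for SY63 over ZS97. By qRT-PCR in leaves of older plants, the study reports OsGI as higher in SY63 than in its parents.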

How the data were processed

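Total RNA of whole seedlings was made into tag libraries by the authors: cDNA bound to oligo(dT) beads was cut with NlaIII, a short tag beside the CATG site was released with MmeI, and the tags were read on an Illumina instrument. According to the methods of the study, the authors matched clean tags to MSU release 6.1 rice cDNAs with at most 1 mismatch and left out tags that matched several genes. The reference is japonica, so an indica transcript whose tag differs by more than 1 base, or whose NlaIII site differs, can be missing from the counts. The aligner is not given in the sources used here.

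The deposited tables, 1 for each of 5 pairs of libraries, hold the raw count of tags per gene, not normalized, and the TPM that the authors obtained by dividing by the clean tags of the library, with 0.01 in place of 0. The authors' own log2 ratios, p-values and FDR were not used, nor were shortened copies of the tables or a table of genome-matched tags without gene names. SY63, in 4 of the tables, and MH63 and ZS97, in 2 each, had the same counts in all of theirs. FU and FR were in 1 each, so their counts could not be compared.

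Totals of clean tags were derived from the pairs of count and TPM. Libraries were compared with the exact test of Audic and Claverie, as 2 times the smaller tail, with Benjamini-Hochberg adjustment over genes with a tag in either library. SY63 was also set against the summed counts of its parents. Because each genotype had 1 library, the quasi-likelihood fit of edgeR had no residual degrees of freedom and was not run, and no p-value measures variation between plants. The alternatives were scaling by gene tags, TMM factors or DESeq2 size factors, a minimum of 20 tags, no minimum ratio, and edgeR's exact test with an assumed coefficient of variation of 0.2 or 0.4. Calculations used Python 3.11.15, scipy 1.17.1, R 4.3.3, edgeR 4.0.16 and DESeq2 1.42.0, and were tested on simulated counts.

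The 6 genes were always named. The other genes named were, for each of the 6, the 2 most similar in profile. From the lists of genes linked to light, every called gene was named in lists of up to 10 genes. In a longer list the called gene with the largest ratio in each direction was named, with at least 20 tags in both libraries. OsHDT1 and OsGI were named as the altered gene and the clock gene of the study. Uncalled genes of the lists were added after their values were seen. The members and lists were chosen with earlier results of these data known. No sequences or coordinates are given.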

Additional observations from a re-analysis of the deposited data

How the results depend on the processing

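Each of 42 log2 ratios (6 genes in 7 comparisons) was recomputed with 3 other scalings. Direction and call were kept in 40 with scaling by tags on genes, 37 with TMM factors and 38 with DESeq2 size factors. TMM factors moved the median log2 ratio of all genes by 0.16 for SY63 over MH63, by -0.18 for MH63 over ZS97 and by -0.10 for FU over FR, and DESeq2 size factors moved it by 0.14 for SY63 over MH63 and by -0.17 for MH63 over ZS97. The signs that turned were all of uncalled ratios near 0. For cry2 in FU over SY63 the ratio became -0.0078 with tags on genes, -0.070 with TMM and -0.055 with DESeq2. For cry2 in FR over SY63 it became 0.0085 with TMM and 0.0078 with DESeq2, and in FU over FR -0.079 with TMM and -0.063 with DESeq2. For phyC in FU over FR it became -0.0095 with TMM.

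The number of the 6 genes called for SY63 over MH63 was 1 (phyA) in place of 0 with each of the 3 other scalings, and 2 (phyA and cry1b) with no minimum ratio. With no minimum ratio it was also 2 for MH63 over ZS97 (phyA and cry1b) and 2 for SY63 over the mean of the parents (phyC and cry1b). With a minimum of 20 tags it was 1 (cry1a) for FU over FR. With edgeR's exact test at an assumed coefficient of variation of 0.2 or 0.4 it was 0 for SY63 over ZS97 and 0 for MH63 over ZS97. At 0.2 that test passed, by its FDR alone, 132 of 20783 genes for SY63 over ZS97 and 948 of 20560 for MH63 over ZS97. The counts of the 6 genes also required a log2 ratio of at least 1 in size. Against shares this small, 0 of 6 does not set the genes apart. No paired analysis was possible because each genotype had 1 library. cry1a, with 35 to 74 tags, was the gene least well determined by depth.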

Other observations

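Blue light is also sensed by LOV-domain receptors, the phototropins among them, which act with BTB-NPH3 proteins in phototropism. The descriptions gave 26 genes of this kind, and none was called for FU over SY63, FR over SY63 or FU over FR by the Audic-Claverie exact test, where 3.0%, 1.16% and 3.22% of all genes tested were called. For SY63 over MH63 the calls were 0 higher and 3 lower, for SY63 over ZS97 they were 2 higher and 0 lower, for MH63 over ZS97 they were 4 higher and 0 lower, and for SY63 over the mean of the parents they were 0 higher and 1 lower. The genes tested numbered 22, 24, 23 and 24 in these comparisons, in which 16.5%, 3.95%, 17.5% and 6.34% of all genes were called. BTBN3 (LOC_Os02g38120) had 93 tags in FU, 103 in FR, 86 in SY63, 273 in MH63 and 68 in ZS97, and was higher in MH63 than in ZS97 by 1.99 (1.60 to 2.39) on the log2 scale. BTBN7 (LOC_Os03g41350) had 58 tags in FU, 49 in FR, 45 in SY63, 165 in MH63 and 45 in ZS97, with a log2 ratio of -1.83 (-2.34 to -1.34) for SY63 over MH63. Both stood high in MH63 alone, as cry1b did. BTBN9 (LOC_Os03g52880) had 108 tags in FU, 109 in FR, 120 in SY63, 107 in MH63 and 54 in ZS97, with a log2 ratio of 1.18 for SY63 over ZS97, and was low in ZS97 alone, as phyC was.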
